A study of Mus musculus with 9 samples.

Results

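Chemokine and chemokine receptor genes were taken from the gene count tables of mouse spleen libraries by symbol, as the Ccl, Ccr, Cxcl, Cxcr, Cx3c and Ackr genes together with Xcl1 and Xcr1. The symbols, assigned from Ensembl identifiers with GENCODE M21, gave 60 genes of the 21965 counted. They were read in 3 groups of 3 libraries from mice aged 16 weeks. Female BWF1 mice, the F1 cross of NZB and NZW, are named by the series as prone to lupus, and male BWF1 mice of the same cross and female BALB/c mice, an inbred strain, as not prone. No transgene or treatment is given for any group, and male BWF1 mice and female BALB/c mice differ in sex and in strain at once. The labels do not agree on the cells, since the series text names splenocytes and the sample labels name macrophages gated on CD11b and F4/80.

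Chemokines are small secreted proteins that guide migrating leukocytes, and most act through G protein-coupled receptors on the cell that moves. In the spleen, CXCL13 from follicular stroma draws CXCR5-bearing B cells into follicles, while CCL19 and CCL21 draw CCR7-bearing T cells and dendritic cells into the T cell zone. Inflammatory chemokines such as CCL3, CCL4 and CCL5 recruit effector T cells and myeloid cells. Atypical receptors, the ACKR proteins, bind chemokines without the usual G protein signal and remove or redistribute them.

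Depth set what could be measured. Libraries held 458608 to 673160 gene counts in female BWF1 mice, 970263 to 4305003 in male BWF1 mice and 879890 to 1310639 in female BALB/c mice, and 1 gene, Lars2, took 42.3% to 76.6% of them. The family received 258 to 318 counts per library in female BWF1 mice, 334 to 3878 in male BWF1 mice and 817 to 1166 in female BALB/c mice. Levels are given as CPM, where each library's counts are scaled to one common total with TMM factors, which hold most genes level between libraries. On that scale 3 counts in 1 library stood at 4.84 to 6.62 CPM in female BWF1 mice, 0.625 to 5.88 CPM in male BWF1 mice and 1.97 to 2.97 CPM in female BALB/c mice. The summed level of 12 B cell markers was 2589 to 2881 CPM in female BWF1 mice, 2622 to 3345 CPM in male BWF1 mice and 3687 to 3732 CPM in female BALB/c mice. The 16 macrophage and sorting gate markers summed to 261 to 281 CPM, 530 to 758 CPM and 382 to 446 CPM in the same order of groups, so B cell RNA was abundant in every library. File names carried the tag RL in BWF1 female libraries 1 and 3 and BWF1 male libraries 1 and 3, and ORIG in all other libraries, the 3 of BALB/c included. The labels do not say what the tags mean. With the tag as a term in a fit, differences from female BALB/c mice lean on BWF1 female 2 and BWF1 male 2, the ORIG libraries of their groups.

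Of the 60 genes, 19 passed the filter on low counts, which asks for about 10.3 CPM of the library totals before TMM scaling in at least 3 libraries. Another 26 had counts but lay below it, and 15 had 0 counts in all 9 libraries. The 15 were Ccl7, Ccl8, Ccl11, Ccl12, Ccl19, Ccl20, Ccl21a, Ccl21b, Ccl26, Ccl27b, Ccl28, Cxcl3, Cxcl15, Cxcl17 and Cxcr1. A count of 0 allows up to 1.92 CPM over the BWF1 female libraries together, 0.477 CPM over those of male BWF1 mice and 0.765 CPM over those of female BALB/c mice. Ccl21a, Ccl21b, Ccl27b and Ccl19 share 71.6%, 100%, 98.1% and 52.0% of their 50-base stretches with transcripts of other genes, and reads that did not align uniquely were set apart in the deposited summary lines, so their counts of 0 could not show whether these genes were transcribed. Cxcl11, Ccl19-ps1 and Ccl19-ps3 also bear symbols of the family and were not analysed here.

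By position, measured and unmeasured genes fell together in several places. On mm10 chromosome 11, the 5 genes between 83525778 and 83664683 (Ccl5, Ccl9, Ccl6, Ccl3 and Ccl4) held 1177 counts over all libraries, and 4 of them were tested. The 6 genes of the monocyte-attracting and eotaxin group between 82035571 and 82305690 on the same chromosome (Ccl2, Ccl7, Ccl11, Ccl12, Ccl8 and Ccl1) held 4 counts in all. The Cxcl5, Cxcl3, Cxcl15, Cxcl1 and Cxcl2 group on chromosome 5 (90759360 to 90905938) held 58 counts, of which Cxcl2 took 56.

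Per kilobase of exon, lymphocyte receptors and Ccl5 stood highest. The mean over all 9 libraries was 74.5 CPM per kilobase for Cxcr4, the CXCL12 receptor, 51.6 for Ccl5, 50.8 for Ccr7, 41.7 for Cxcr5 and 16.5 for Ccr6. Within female BALB/c mice Cxcr4 reached 68.0 to 86.9 CPM per kilobase, Ccr7 65.4 to 78.7 and Ccl5 50.2 to 97.1, so these 3 neighbours in the order overlapped there. In female BWF1 mice Ccl5 reached only 15.0 to 20.2 CPM per kilobase, below Cxcr4 (53.7 to 67.0), Cxcr5 (35.1 to 43.7) and Ccr7 (22.8 to 40.0). At the low end, Cx3cr1 had 1.64 and Ccr9 had 1.35 CPM per kilobase.

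**Figure D1:**
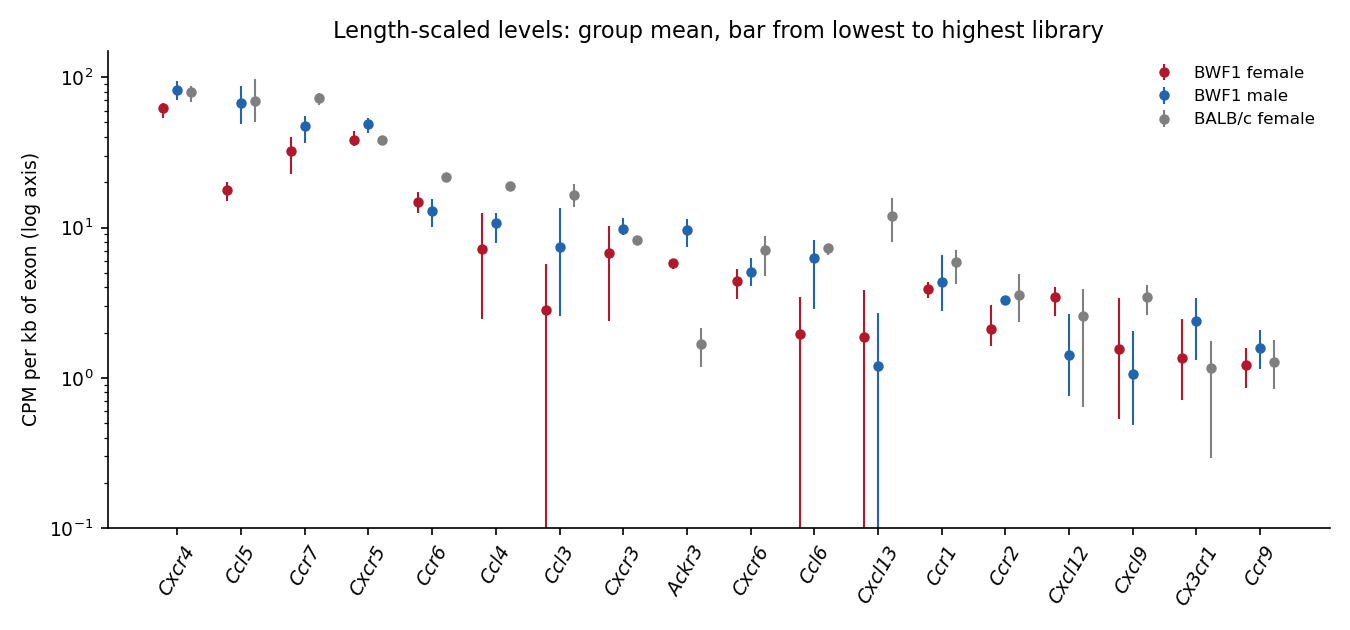
Levels of 18 tested chemokine family genes as TMM-scaled CPM per kilobase of exon, on a log axis, by group. Marks are group means and bars run from the lowest to the highest of 3 libraries (cut at 0.1 where a library had 0 counts); Cxcr4, Ccl5, Ccr7 and Cxcr5 stand at the high end, and Ccr9 at the low end with a mean of 1.35 over all libraries.

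Differences between groups were tested with edgeR's quasi-likelihood test over all 7719 genes that passed the filter, and a gene was called at a Benjamini-Hochberg adjusted p under 0.05. Female BWF1 mice had lower Ccl5 than both male BWF1 mice and female BALB/c mice, with log2 differences of −1.94 and −1.93, and lower Ccr7, Ccl3 and Cxcl13 and higher Ackr3 than female BALB/c mice. Male BWF1 mice had lower Cxcl13 and higher Ackr3 than female BALB/c mice. These 5 genes were the only ones of the family called in any of the 3 comparisons. Ccl3 and Cxcl13 passed the filter through the BALB/c libraries alone, so that being lower elsewhere was set by the filter, and their calls are given as descriptions. Ackr3 passed it through the BWF1 libraries alone, and its calls against female BALB/c mice are likewise descriptions. The comparisons share libraries and are set side by side without counting what they have in common.

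In female BWF1 mice against male BWF1 mice, 1 of the 19 tested genes was called, lower, where 2.19% of all tested genes were called (1.23% lower and 0.959% higher). The other 18 were not, and 8 of the 19 had an unadjusted p under 0.05, against 16.4% of all tested genes. The median log2 difference of the 19 was −0.52, beside 0.000638 over all tested genes, and 16 of them had a negative sign. In female BWF1 mice against female BALB/c mice, 4 genes were called lower and 1 higher, where 3.82% of all tested genes were called (2.03% lower and 1.79% higher). The median of the 19 was −0.63, beside −0.00236 over all tested genes, with 15 negative signs, and 10 of the 19 had an unadjusted p under 0.05, against 16.9% of all. In male BWF1 mice against female BALB/c mice, 1 was called lower and 1 higher, where 3.52% of all tested genes were called (1.85% lower and 1.67% higher). The median was −0.17, beside −0.00283 over all tested genes, and 10 had an unadjusted p under 0.05, against 16.3% of all. Ccl3, Ccl4 and Cxcl13 passed the filter through the BALB/c libraries alone and therefore had to be lower in BWF1 mice than in female BALB/c mice. Ackr3 passed it through the BWF1 libraries alone. These counts and medians thus describe the 19 and support nothing further. Scaling by library size only, without TMM factors, moved the median of all genes by 0.16 in female BWF1 mice against male BWF1 mice, by −0.29 in female BWF1 mice against female BALB/c mice and by −0.44 in male BWF1 mice against female BALB/c mice. The called genes divided into 74 higher and 95 lower, 138 higher and 157 lower, and 129 higher and 143 lower in the 3 comparisons with TMM factors. They divided into 45 higher and 14 lower, 23 higher and 107 lower, and 26 higher and 248 lower without them.

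**Figure D2:**
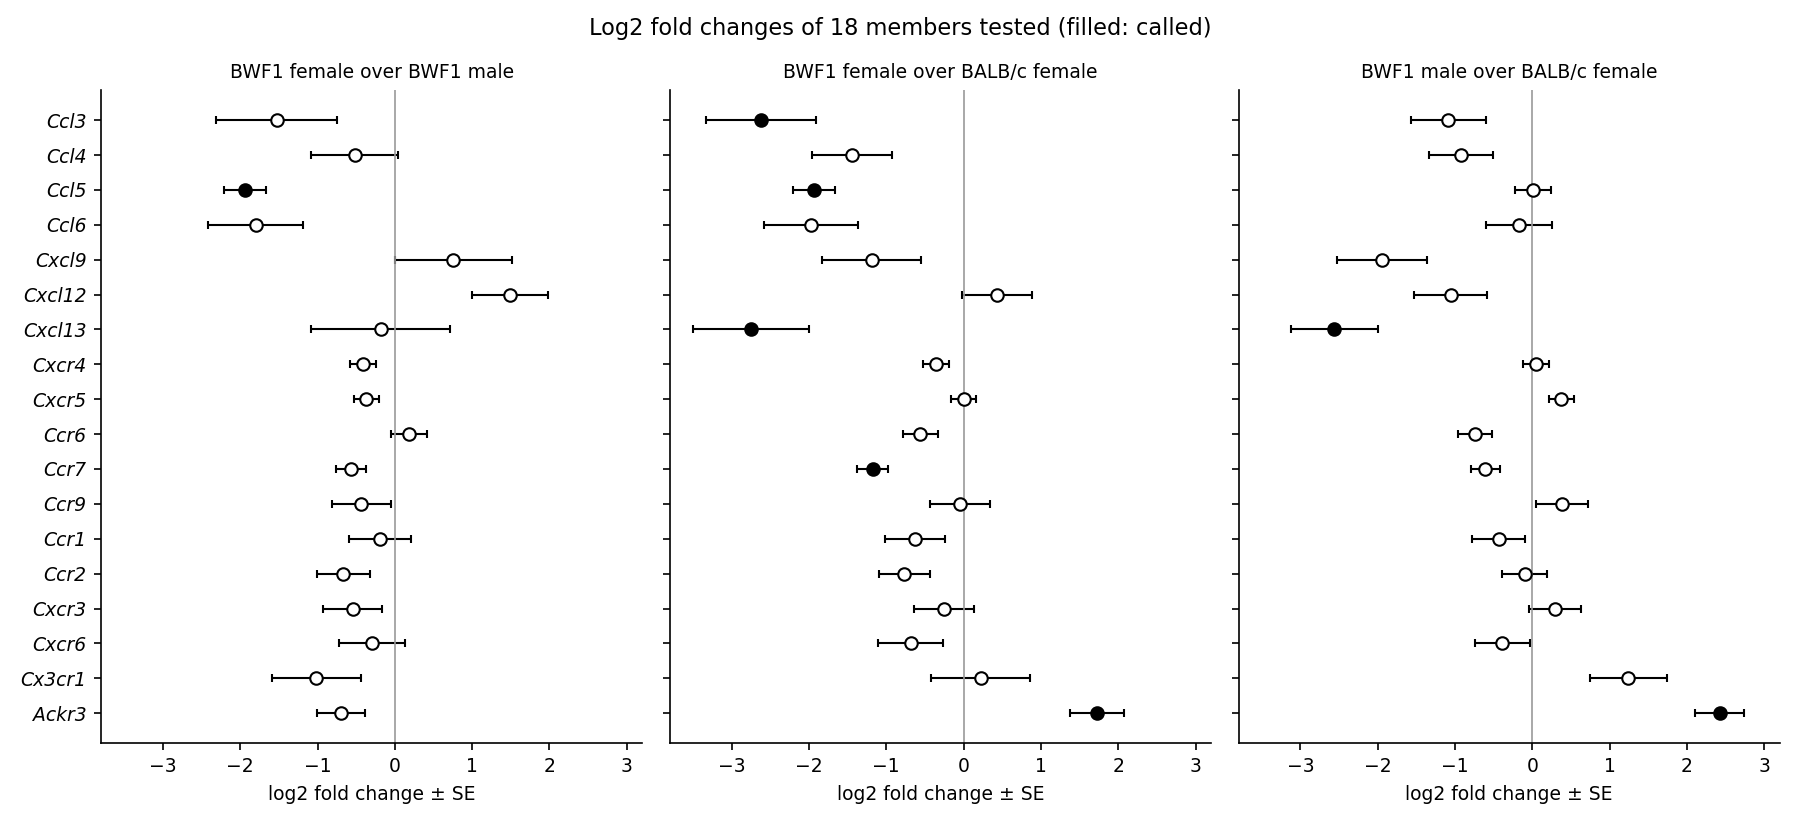
Log2 fold changes of 18 tested genes in each of the 3 comparisons, first group over second, with bars of ±1 SE. Filled marks are called at an adjusted p under 0.05: Ccl5 in female BWF1 mice against male BWF1 mice (−1.94), Ccl5, Ccl3, Cxcl13, Ccr7 and Ackr3 in female BWF1 mice against female BALB/c mice, and Cxcl13 and Ackr3 in male BWF1 mice against female BALB/c mice. Ccl3, Ccl4 and Cxcl13 passed the filter through the BALB/c libraries alone, and Ackr3 through the BWF1 libraries alone.

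Promoters of 46 of the 60 genes were matched in RefSeq (GRCm38.p6), and the called genes Ccl5 and Ccr7 were not among them. The promoters of the other called genes, Ackr3, Ccl3 and Cxcl13, are printed. Each is the 250 bases before the annotated start, 5′ to 3′ on the gene's strand: Ackr3 from chr1:90203730-90203979 (plus strand), Ccl3 from chr11:83649379-83649628 (minus strand) and Cxcl13 from chr5:95956689-95956938 (plus strand). Capitals mark matches to the letters GGG and CC with any 5 bases between them (a form of the NF-kB site), GAAA and GAAA with any 2 bases between them (a form of the interferon-stimulated response element) or TATAAA (the TATA box), each searched on both strands.
Ackr3: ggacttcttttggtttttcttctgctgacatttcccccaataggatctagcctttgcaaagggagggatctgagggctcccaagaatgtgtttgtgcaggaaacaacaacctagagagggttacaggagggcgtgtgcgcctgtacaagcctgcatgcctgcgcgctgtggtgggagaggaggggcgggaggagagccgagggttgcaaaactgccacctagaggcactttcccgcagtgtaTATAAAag
Ccl3: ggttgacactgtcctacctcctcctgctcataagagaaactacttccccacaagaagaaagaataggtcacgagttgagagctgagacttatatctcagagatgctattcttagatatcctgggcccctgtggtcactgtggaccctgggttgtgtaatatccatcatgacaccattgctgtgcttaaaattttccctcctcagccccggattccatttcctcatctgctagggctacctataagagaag
Cxcl13: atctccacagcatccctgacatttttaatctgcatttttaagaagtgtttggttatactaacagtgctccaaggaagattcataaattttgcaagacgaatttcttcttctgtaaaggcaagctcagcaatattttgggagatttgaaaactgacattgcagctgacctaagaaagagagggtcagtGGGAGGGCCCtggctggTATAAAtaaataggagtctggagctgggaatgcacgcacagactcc
Cxcl13 held the NF-kB letters on both strands at 1 place that starts 63 bases before the start, and TATAAA 46 bases before it. Ackr3 held TATAAA 8 bases before its start, and Ccl3 held none of the 3 patterns in this window. The NF-kB letters stood in 25 of the 46 family promoters (54.3%), beside 45.4% of all 27025 promoters of this length. The interferon letters stood in 3 (Ccl19, Cxcl10 and Cxcl14; 6.52%, beside 3.04% of all), and TATAAA in 13 (28.3%, beside 3504 of all 27025). A match describes letters and is no evidence of binding.

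Among the inflammatory CC chemokines, 16 genes in all, 4 were tested, 6 lay below the filter and 6 were at 0. Their summed level was 41.9, 27.4 and 43.1 CPM in female BWF1 mice, 88.3, 95.4 and 123 CPM in male BWF1 mice, and 98.5, 104 and 149 CPM in female BALB/c mice. The BWF1 female libraries thus lay below every library of the other groups. Ccl5 was the largest term of that sum in every library.

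Ccl5 encodes RANTES, a chemokine made mainly by activated T cells and natural killer cells that attracts cells bearing CCR1 or CCR3 (ENSMUSG00000035042, mm10 chromosome 11, 83525778 to 83530518). Its level was 17.6, 19.4 and 14.4 CPM in female BWF1 mice, 47.1, 63.6 and 84.3 CPM in male BWF1 mice, and 48.2, 57.8 and 93.2 CPM in female BALB/c mice. All BWF1 female libraries lay below all others, and the ranges of male BWF1 mice and female BALB/c mice overlapped. By edgeR's quasi-likelihood test the log2 difference was −1.94 (SE 0.28, adjusted p = 0.000174) for female BWF1 mice against male BWF1 mice and −1.93 (SE 0.28, adjusted p = 8.53e-05) for female BWF1 mice against female BALB/c mice. Between male BWF1 mice and female BALB/c mice it was 0.01, with a 95% interval of −0.45 to 0.46. Within the RL libraries alone, female BWF1 mice against male BWF1 mice gave −2.07 (edgeR adjusted p = 8.49e-05). In these bulk samples, fewer cells that make a transcript and less transcript per cell cannot be told apart.

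T cell and cytotoxic lymphocyte markers moved with Ccl5 in female BWF1 mice against male BWF1 mice: 10 of 18 tested T cell markers and 5 of 9 tested natural killer and cytotoxic markers were called lower, and none higher. Of all tested genes, 1.23% were called lower there. The T cell markers summed to 755 to 884 CPM in female BWF1 mice, 1238 to 1356 CPM in male BWF1 mice and 795 to 1088 CPM in female BALB/c mice. The cytotoxic markers summed to 154 to 172 CPM in female BWF1 mice, 433 to 467 CPM in male BWF1 mice and 215 to 252 CPM in female BALB/c mice, and no marker of either list was at 0 in a whole group. In female BWF1 mice against female BALB/c mice, where Ccl5 differed as much, 3 T cell markers and 1 cytotoxic marker were called lower, beside 2.03% of all tested genes. In male BWF1 mice against female BALB/c mice, where Ccl5 was not called, 3 and 5 were called higher, beside 1.67% of all tested genes. The part of these markers in the Ccl5 differences was not tested.

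Ccl3 encodes MIP-1α, which macrophages and lymphocytes release soon after activation and which binds CCR1. It was at 4.41, 0 and 2.05 CPM in female BWF1 mice, from counts of 2, 0 and 1, at 1.96, 10.3 and 4.79 CPM in male BWF1 mice, and at 12.2, 10.5 and 14.9 CPM in female BALB/c mice. All BALB/c libraries stood above all BWF1 libraries, by a narrow margin in the case of BWF1 male 2. Ccl3 passed the filter through the BALB/c libraries alone and had to be lower elsewhere, so its log2 difference of −2.61 (SE 0.71, edgeR adjusted p = 0.0326) for female BWF1 mice against female BALB/c mice is a description. With no filter on genes it was −2.65 (edgeR adjusted p = 0.00340). This call was lost in 9 of 20 alternatives (adjusted p = 0.0567 to 0.217), among them DESeq2, limma-voom, the file name tag as a term and leaving out BWF1 female 2, BWF1 female 3 or any 1 BALB/c library. It was −3.64 without BWF1 female 1 and −1.93 without BWF1 female 2. The other differences were −1.53 for female BWF1 mice against male BWF1 mice and −1.09 for male BWF1 mice against female BALB/c mice, neither called.

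Of 17 tested genes that respond to tissue handling and stress, 13 were called lower in female BWF1 mice than in female BALB/c mice and 6 lower in male BWF1 mice than in female BALB/c mice. Of all tested genes, 2.03% and 1.85% were called lower in these comparisons. The 18 genes of that list summed to 1472 to 1663 CPM in female BWF1 mice, 1781 to 2379 CPM in male BWF1 mice and 2768 to 4484 CPM in female BALB/c mice, and their part in the Ccl3 difference was not tested.

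Ccl4, MIP-1β, lies beside Ccl3 and attracts T cells and monocytes. It averaged 4.75 ± 3.31 CPM in female BWF1 mice, 7.08 ± 1.64 CPM in male BWF1 mice and 12.5 ± 0.884 CPM in female BALB/c mice (SD, n = 3 each), and was not called in any comparison. Ccl6, a mouse chemokine of myeloid cells that binds CCR1, averaged 3.52 ± 3.17 CPM in female BWF1 mice, 11.2 ± 5.30 CPM in male BWF1 mice and 13.1 ± 1.12 CPM in female BALB/c mice. Its log2 difference was −1.97 (SE 0.61, edgeR adjusted p = 0.0716) for female BWF1 mice against female BALB/c mice, short of the threshold. It was called in 4 alternatives (edgeR adjusted p = 0.00691 to 0.0451): library size only, no filter, the file name tag as a term and without BWF1 female 3. The neighbouring Ccl9, another myeloid CCR1 ligand, lay below the filter with 11, 60 and 22 counts over the libraries of female BWF1 mice, male BWF1 mice and female BALB/c mice, or 7.05, 9.54 and 5.61 CPM.

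Of the 12 homeostatic chemokines, which place cells in resting tissue, 2 were tested, 3 lay below the filter and 7 were at 0. Cxcl13, the B cell follicle chemokine (ENSMUSG00000023078, chromosome 5, 95956951 to 95961068), was at 4.41, 0 and 2.05 CPM in female BWF1 mice, 0, 1.03 and 3.12 CPM in male BWF1 mice, and 18.0, 9.20 and 13.9 CPM in female BALB/c mice. All BALB/c libraries lay above all BWF1 libraries, whereas the BWF1 sexes overlapped near the limit of 3 counts. Cxcl13, too, passed the filter through the BALB/c libraries alone, which set the direction, and its differences are descriptions. The log2 difference was −2.75 (SE 0.75, edgeR adjusted p = 0.0326) for female BWF1 mice against female BALB/c mice and −2.56 (SE 0.56, edgeR adjusted p = 0.00651) for male BWF1 mice against female BALB/c mice. Leaving out BALB/c female 1, the highest library, gave edgeR adjusted p = 0.149 in female BWF1 mice and 0.0623 in male BWF1 mice, and neither was then called. The call in female BWF1 mice was lost in 6 of 19 alternatives (adjusted p = 0.0723 to 0.156), among them DESeq2, limma-voom and leaving out BWF1 female 2, BWF1 female 3 or BALB/c female 3. In a further alternative, without Lars2, Cxcl13 did not pass the filter and was not tested. With no filter on genes, the edgeR adjusted p was 0.00215 in female and 2.43e-05 in male BWF1 mice. The difference was −4.08 in male BWF1 mice without BWF1 male 3, and with the file name tag as a term it was −4.25 in female and −4.27 in male BWF1 mice. The values with the tag term lean on BWF1 female 2 and BWF1 male 2, which had 0 and 1 counts of Cxcl13.

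The 16 stromal markers summed to 174 to 246 CPM in female BWF1 mice, 184 to 204 CPM in male BWF1 mice and 293 to 303 CPM in female BALB/c mice. Lum and Pdpn, which mark fibroblasts and reticular cells, had 0 counts in both BWF1 groups, and Madcam1, a marker of marginal sinus lining cells, had 0 in female BWF1 mice. Of 7 tested stromal markers, 3 were called lower and 1 higher in female BWF1 mice than in female BALB/c mice, and 2 lower and 1 higher in male BWF1 mice than in female BALB/c mice. Of all tested genes, 2.03% were called lower and 1.79% higher in the first comparison, and 1.85% and 1.67% in the second. The part of the stromal markers in the Cxcl13 differences was not tested.

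Cxcl12, which retains CXCR4-bearing cells in marrow and red pulp, was at 30.9, 21.0 and 32.9 CPM in female BWF1 mice, 21.6, 6.15 and 7.29 CPM in male BWF1 mice, and 26.6, 5.26 and 31.7 CPM in female BALB/c mice. Libraries within male BWF1 mice and within female BALB/c mice differed several-fold. The log2 difference of 1.49 (SE 0.49, edgeR adjusted p = 0.117) for female BWF1 mice against male BWF1 mice was not called, but without BWF1 male 1 it was 1.99 (edgeR adjusted p = 0.0189). It was also called without BALB/c female 2 (edgeR adjusted p = 0.0413), with library size only (edgeR adjusted p = 0.0270), without a filter (edgeR adjusted p = 0.00242) and in limma-voom (adjusted p = 0.0278). For male BWF1 mice against female BALB/c mice it was −1.06 (SE 0.47, edgeR adjusted p = 0.251), not called, but called in 4 alternatives (edgeR adjusted p = 0.0199 to 0.0452): library size only, no filter, without BWF1 male 1 and without BALB/c female 2. Ccl25, the CCR9 ligand of thymus and gut, had 10, 22 and 15 counts in female BWF1 mice, male BWF1 mice and female BALB/c mice, or 6.41, 3.50 and 3.82 CPM. Ccl27a and Cxcl14 had 1 count each in all.

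**Figure D3:**
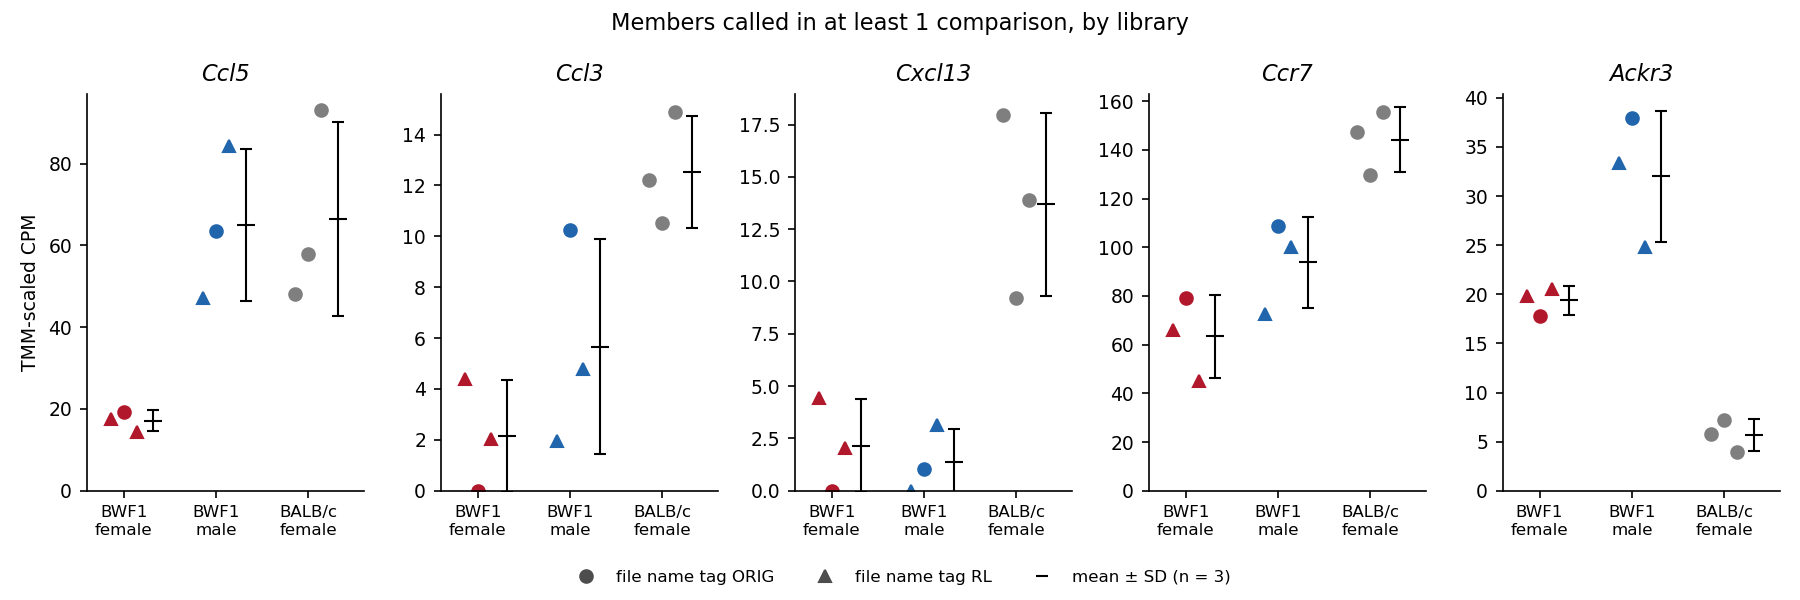
TMM-scaled CPM in each library for Ccl5, Ccl3, Cxcl13, Ccr7 and Ackr3, with group means and SD bars of 3 libraries, cut off at 0; circles are ORIG libraries and triangles RL libraries. Ccl5 is low in all female BWF1 mice, at 14.4 to 19.4 CPM, Ackr3 is low in all female BALB/c mice, at 3.96 to 7.23 CPM, and Ccl3 and Cxcl13 are highest in female BALB/c mice.

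Of the 9 inflammatory CXC, CX3C and XC chemokines, only Cxcl9 was tested. Cxcl9, the interferon-γ-induced ligand of CXCR3, averaged 4.69 ± 4.83 CPM in female BWF1 mice, 3.19 ± 2.58 CPM in male BWF1 mice and 10.4 ± 2.33 CPM in female BALB/c mice (SD, n = 3 each). Its log2 difference for male BWF1 mice against female BALB/c mice was −1.94 (SE 0.58, edgeR adjusted p = 0.0594), short of the threshold. It was called in 8 alternatives (adjusted p = 0.000463 to 0.0376): library size only, without Lars2, no filter, limma-voom, edgeR's older quasi-likelihood fit (an alternative chosen after seeing the data), and leaving out any 1 of BWF1 male 1, BWF1 female 3 and BWF1 male 2.

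Below the filter, Cxcl2, a neutrophil chemokine that binds CXCR2, had 2 counts in female BWF1 mice, 9 in male BWF1 mice and 45 in female BALB/c mice, or 1.28, 1.43 and 11.5 CPM. The ratio to female BALB/c mice was 0.112 (95% interval 0.0131 to 0.428) in female BWF1 mice and 0.125 (0.0536 to 0.258) in male BWF1 mice. The intervals of these ratios are exact binomial ones and cover counting error only. Cxcl16, the CXCR6 ligand, had 2, 21 and 26 counts in female BWF1 mice, male BWF1 mice and female BALB/c mice, or 1.28, 3.34 and 6.63 CPM. However, 18.3% of its exon bases overlap Zmynd15 and the strand setting of the counting is not given in the sources used here.

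Cxcl10, a second interferon-induced CXCR3 ligand, had 0 counts in female BWF1 mice, 26 in male BWF1 mice and 5 in female BALB/c mice. Its level over the BWF1 male libraries, 4.14 CPM, was 2.15 times the limit of 3 counts over the BWF1 female libraries, 1.92 CPM. Without BWF1 male 3, which held 21 of the 26 counts, it was 1.75 times that limit. These ratios leave out the counting error of the BWF1 male counts, so neither is a lower bound. The exact Poisson interval of the BWF1 male level, from all 26 counts, was 2.70 to 6.06 CPM, above that limit. Xcl1, a product of cytotoxic lymphocytes that attracts XCR1-bearing dendritic cells, had 12, 44 and 14 counts, and Cx3cl1, the ligand of CX3CR1, had 1, 6 and 1, in female BWF1 mice, male BWF1 mice and female BALB/c mice. Cxcl1 and Cxcl5 had 1 count each in all.

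The remaining ligands were at the edge of detection. Counts of Ccl22, a CCR4 ligand of dendritic cells, were 4 in female BWF1 mice, 6 in male BWF1 mice and 19 in female BALB/c mice, and counts of Ccl24, an eotaxin, were 0, 14 and 4. In the same order of groups that was 2.56, 0.954 and 4.84 CPM for Ccl22 and 0, 2.23 and 1.02 CPM for Ccl24. Ccl2, the CCR2 ligand, had 3 counts, all in female BALB/c mice, Ccl17 had 2, both in male BWF1 mice, and Ccl1 had 1.

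The 6 homing receptors, which direct lymphocytes into lymphoid compartments or gut, carried most of the family's counts, and 5 were tested. Their summed level was 357, 360 and 331 CPM in female BWF1 mice, 379, 478 and 501 CPM in male BWF1 mice, and 479, 482 and 474 CPM in female BALB/c mice. Ccr7, which brings T cells and dendritic cells into the T cell zone (ENSMUSG00000037944, chromosome 11, 99144196 to 99155077), was at 66.2, 79.1 and 45.2 CPM in female BWF1 mice, 72.6, 109 and 99.9 CPM in male BWF1 mice, and 147, 129 and 156 CPM in female BALB/c mice. Every BALB/c library lay above every BWF1 library, and the BWF1 sexes overlapped.

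For Ccr7 the log2 difference was −1.18 (SE 0.20, edgeR adjusted p = 0.000624) for female BWF1 mice against female BALB/c mice. It was −0.61 (SE 0.19, edgeR adjusted p = 0.0759) for male BWF1 mice against female BALB/c mice and −0.57 (SE 0.20, edgeR adjusted p = 0.138) for female BWF1 mice against male BWF1 mice, neither called. The difference for male BWF1 mice was called in 5 alternatives (adjusted p = 0.0195 to 0.0471): without Lars2, no filter, limma-voom, edgeR's older fit and without BWF1 female 3. With the file name tag as a term, the difference for female BWF1 mice against female BALB/c mice was −0.93 (edgeR adjusted p = 0.0261). Of 12 tested B cell markers, 4 were called lower in female BWF1 mice than in female BALB/c mice, as were 3 of 18 T cell markers, while 0 of 8 dendritic cell markers were called in any comparison (877 to 1001 CPM in sum in female BWF1 mice, 865 to 961 in male BWF1 mice and 847 to 1005 in female BALB/c mice). Of all tested genes, 2.03% were called lower in female BWF1 mice than in female BALB/c mice. The part of these markers in the Ccr7 difference was not tested.

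Cxcr5, the follicle-homing receptor of B cells, was at 146, 118 and 117 CPM in female BWF1 mice, 141, 170 and 178 CPM in male BWF1 mice, and 119, 125 and 136 CPM in female BALB/c mice. It was not called in any comparison: the log2 difference was −0.37 (95% interval −0.69 to −0.06) for female BWF1 mice against male BWF1 mice and 0.00 (−0.31 to 0.32) for female BWF1 mice against female BALB/c mice. For male BWF1 mice against female BALB/c mice the Cxcr5 difference was 0.37 (95% interval 0.06 to 0.69). Of the exon bases of Cxcr5, 3.30% overlap Bcl9l.

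Cxcr4 was at 97.0, 118 and 121 CPM in female BWF1 mice, 127, 147 and 171 CPM in male BWF1 mice, and 152, 157 and 123 CPM in female BALB/c mice. All BWF1 female libraries lay below those of both other groups, but the log2 differences of −0.41 (95% interval −0.74 to −0.08, against male BWF1 mice) and −0.36 (−0.69 to −0.03, against female BALB/c mice) were not called (edgeR adjusted p = 0.207 and 0.274). Ccr6, the CCL20 receptor of B cells and interleukin-17-producing T cells, averaged 34.5 ± 5.34 CPM in female BWF1 mice, 29.9 ± 6.18 CPM in male BWF1 mice and 50.7 ± 2.68 CPM in female BALB/c mice (SD, n = 3 each). Its log2 difference was −0.56 (edgeR adjusted p = 0.191) for female BWF1 mice and −0.74 (edgeR adjusted p = 0.0541) for male BWF1 mice against female BALB/c mice, and its only ligand in the family, Ccl20, was at 0. The difference in male BWF1 mice was called in 4 alternatives (adjusted p = 0.00971 to 0.0422): without Lars2, limma-voom, edgeR's older fit and without BWF1 female 3.

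Ccr9, the gut-homing receptor for CCL25, ranged over 8.82 to 16.1 CPM in female BWF1 mice, 11.8 to 21.2 CPM in male BWF1 mice and 8.62 to 18.4 CPM in female BALB/c mice, with overlapping groups throughout. It shares 20.1% of its 50-base stretches with transcripts of other genes. Ccr10, a skin-homing receptor, had 0, 3 and 1 counts in female BWF1 mice, male BWF1 mice and female BALB/c mice. With CCL19 and CCL21 genes at 0, neither ligand of CCR7 was measured.

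**Figure D4:**
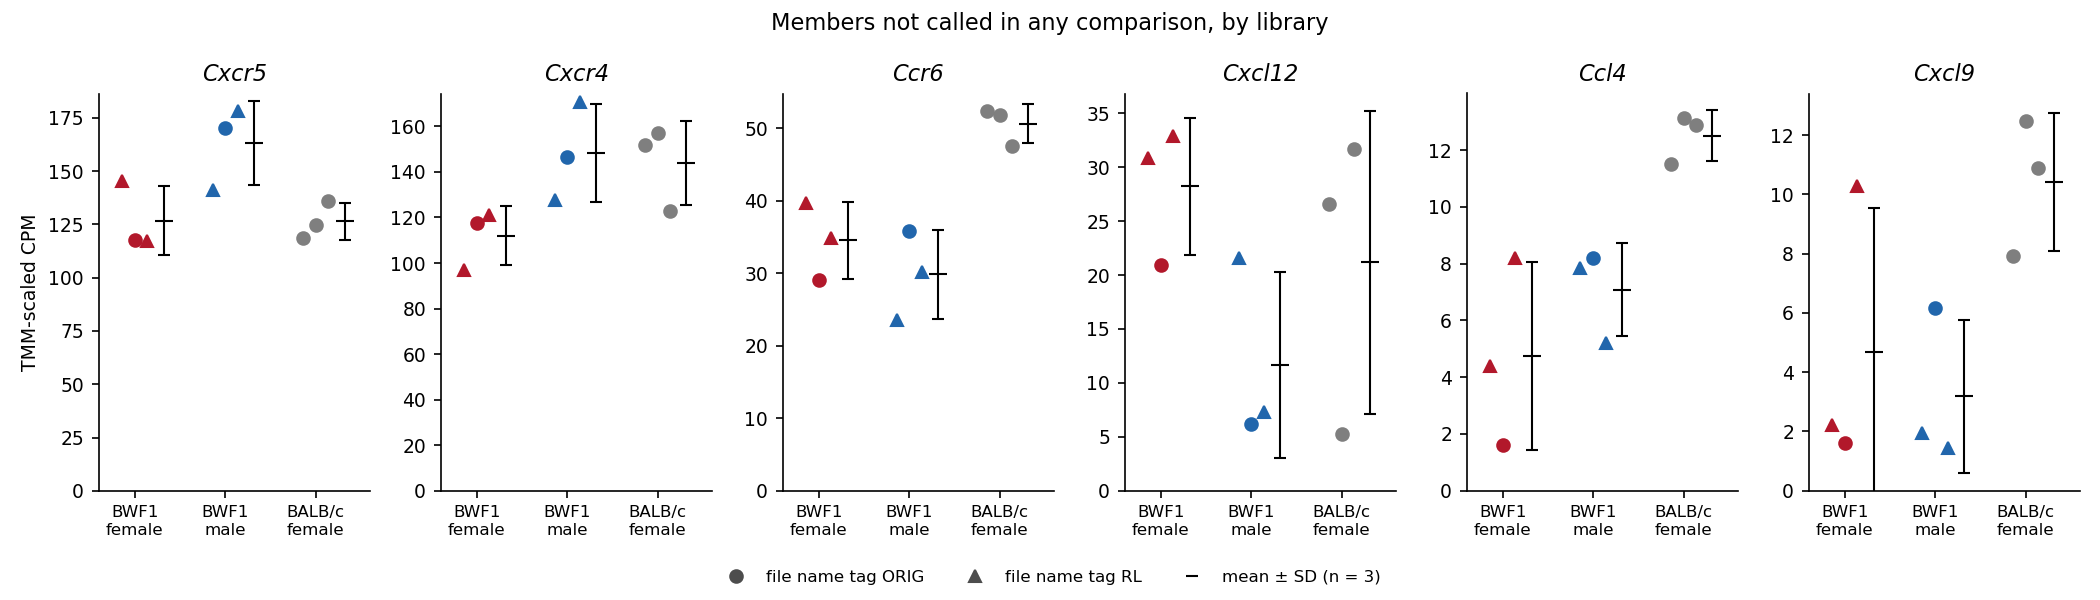
TMM-scaled CPM in each library for 6 of the tested family genes that were not called in any comparison (Cxcr5, Cxcr4, Ccr6, Cxcl12, Ccl4 and Cxcl9), with group means and SD bars of 3 libraries, cut off at 0; circles are ORIG libraries and triangles RL libraries. Cxcr4 and Cxcr5 stand between 97.0 and 178 CPM, while Cxcl12 spreads from 5.26 to 31.7 CPM within female BALB/c mice.

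Of the 13 inflammatory receptors, 6 were tested, 6 lay below the filter and Cxcr1 was at 0, and none was called in any comparison. Their summed level averaged 65.9 ± 6.06 CPM in female BWF1 mice, 109 ± 10.3 CPM in male BWF1 mice and 117 ± 21.7 CPM in female BALB/c mice (SD, n = 3 each), and the BWF1 female libraries lay below all others. Ccr2, which brings classical monocytes from marrow to tissue, averaged 14.3 ± 5.41 CPM in female BWF1 mice, 22.4 ± 0.779 CPM in male BWF1 mice and 24.0 ± 8.64 CPM in female BALB/c mice (SD, n = 3 each). Female and male BWF1 mice did not overlap in Ccr2, yet the log2 difference of −0.66 (SE 0.34, edgeR adjusted p = 0.329) was not called.

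Macrophage and monocyte markers moved in the same comparison. Of 12 tested macrophage markers, 6 were called lower and none higher in female BWF1 mice than in male BWF1 mice, as was 1 of 8 tested monocyte markers. Of all tested genes, 1.23% were called lower there. The 11 monocyte markers summed to 380 to 390 CPM in female BWF1 mice, 538 to 588 CPM in male BWF1 mice and 553 to 623 CPM in female BALB/c mice, with Chil3 at 0 in both BWF1 groups and Vcan at 0 in female BALB/c mice. Their part in the Ccr2 levels was not tested.

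Ccr1, shared by CCL3, CCL5 and CCL6, averaged 11.0 ± 1.32 CPM in female BWF1 mice, 12.4 ± 5.47 CPM in male BWF1 mice and 16.8 ± 4.34 CPM in female BALB/c mice (SD, n = 3 each). Cx3cr1, a receptor of patrolling monocytes, averaged 6.12 ± 4.27 CPM, 10.8 ± 4.68 CPM and 5.24 ± 3.48 CPM in the same groups, and its log2 difference of 1.24 for male BWF1 mice against female BALB/c mice was not called (SE 0.50, edgeR adjusted p = 0.190). Cxcr3, the effector T cell receptor for CXCL9 and CXCL10, averaged 11.7 ± 6.95 CPM in female BWF1 mice, 17.0 ± 2.58 CPM in male BWF1 mice and 14.2 ± 0.786 CPM in female BALB/c mice. Cxcr6, found on tissue-resident T cells, averaged 8.51 ± 1.93 CPM, 9.72 ± 2.16 CPM and 13.7 ± 4.01 CPM.

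Below the filter, Xcr1, which marks cross-presenting dendritic cells, had 3 counts in female BWF1 mice, 34 in male BWF1 mice and 61 in female BALB/c mice, or 1.92, 5.41 and 15.6 CPM. Its ratio to female BALB/c mice was 0.124 (95% interval 0.0248 to 0.379, counting error only) in female BWF1 mice and 0.348 (0.222 to 0.537) in male BWF1 mice. When all genes were tested without a filter, Xcr1 was called lower in both BWF1 groups than in female BALB/c mice (edgeR adjusted p = 0.000258 for females and 0.00411 for males). Cxcl2 was called lower in both as well (edgeR adjusted p = 0.00434 for females and 4.46e-05 for males). With a minimum count of 3, Xcr1 was called in both (edgeR adjusted p = 0.0119 for females and 0.0424 for males). Cxcl2 was then called in males alone (edgeR adjusted p = 0.0103).

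Ccr3, the eotaxin receptor of eosinophils, had 2 counts in female BWF1 mice, 62 in male BWF1 mice and 24 in female BALB/c mice, a ratio of 0.130 (0.0154 to 0.490) between female BWF1 mice and male BWF1 mice. Without a filter it was called lower there (log2 difference −2.74, edgeR adjusted p = 0.0195). With a minimum count of 3 it was not called, and Ccl5 was the only family gene called there. The fit without a filter also gave Ccl5 a far smaller edgeR adjusted p in that comparison, 1.57e-11 against 0.000174 with the filter. Cxcr2, the neutrophil receptor for CXCL1 and CXCL2, had 5, 36 and 28 counts, and Ccr4, of regulatory and type 2 helper T cells, had 1, 16 and 17. Ccr8 had 1, 4 and 2 counts and Ccr1l1 had 0, 1 and 2, too few to compare.

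**Figure D5:**
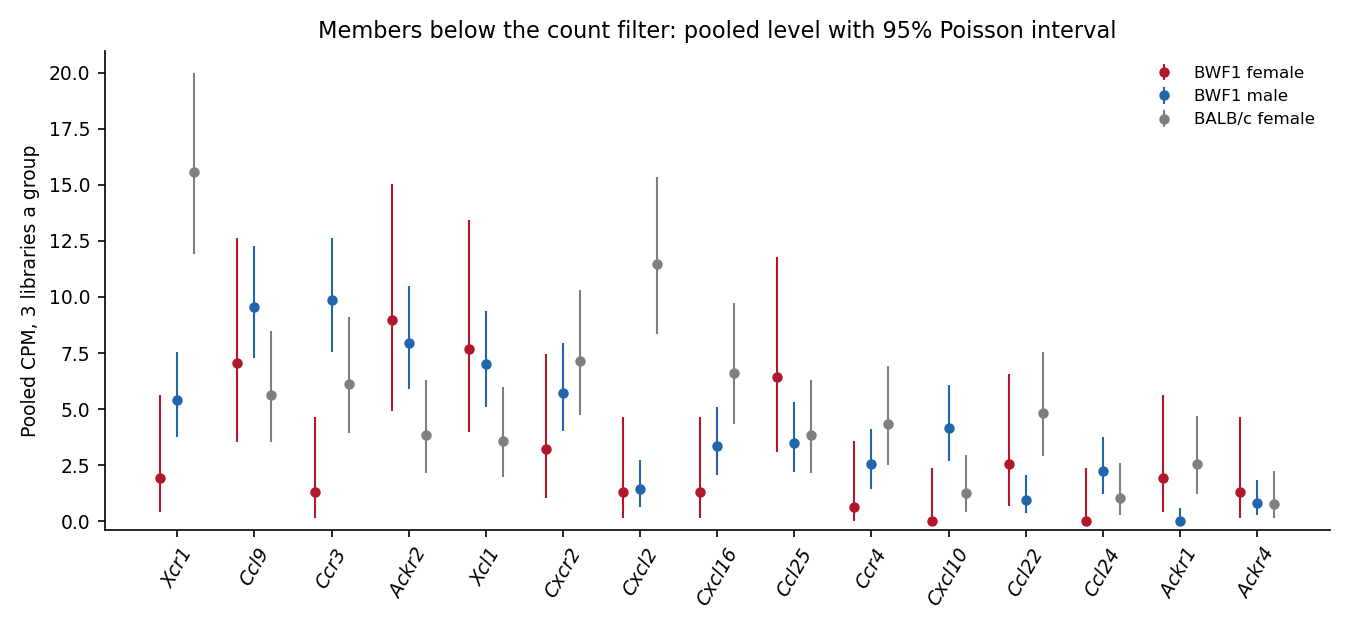
Levels over each group's libraries together (TMM-scaled CPM) of family genes that lay below the filter and had at least 10 counts in all, with exact 95% Poisson intervals that cover counting error only. Xcr1 and Cxcl2 stand highest in female BALB/c mice, at 15.6 and 11.5 CPM, against 1.92 and 1.28 CPM in female BWF1 mice.

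Of the 4 atypical receptors, only Ackr3 was tested. Ackr3, which binds CXCL12 and removes it from the surroundings (ENSMUSG00000044337, chromosome 1, 90203980 to 90216751), was at 19.8, 17.7 and 20.5 CPM in female BWF1 mice, 33.3, 37.9 and 24.8 CPM in male BWF1 mice, and 5.75, 7.23 and 3.96 CPM in female BALB/c mice. The 3 groups did not overlap. The log2 difference was 1.73 (SE 0.35, edgeR adjusted p = 0.00358) for female BWF1 mice against female BALB/c mice and 2.42 (SE 0.32, edgeR adjusted p = 1.77e-05) for male BWF1 mice against female BALB/c mice. The difference of −0.70 (SE 0.31, edgeR adjusted p = 0.246) between female BWF1 mice and male BWF1 mice was not called. Ackr3 passed the filter through the BWF1 libraries alone, so its differences from female BALB/c mice are descriptions. With no filter on genes they were 1.69 (edgeR adjusted p = 0.000715) in female and 2.41 (edgeR adjusted p = 1.31e-10) in male BWF1 mice.

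With library size as the only scaling, Ackr3 in female BWF1 mice against female BALB/c mice was 1.43 (edgeR adjusted p = 0.149) and no longer called, and in male BWF1 mice it was 1.94 (edgeR adjusted p = 0.00142). With the file name tag as a term, the differences were 1.84 (edgeR adjusted p = 0.0125) for females and 2.54 (edgeR adjusted p = 8.83e-05) for males. Ackr3 took 3.60% of the family's summed level in female BWF1 mice, 4.36% in male BWF1 mice and 0.713% in female BALB/c mice.

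Ackr2, which clears inflammatory CC chemokines, had 14, 50 and 15 counts in female BWF1 mice, male BWF1 mice and female BALB/c mice, or 8.97, 7.95 and 3.82 CPM. Ackr1, the Duffy antigen of endothelium and, in humans, of red cells, had 3, 0 and 10 counts. Its level over the BALB/c libraries, 2.55 CPM, was 5.34 times the limit of 3 counts over the BWF1 male libraries, 0.477 CPM. Of the 10 counts, BALB/c female 1 and BALB/c female 2 held 5 each and BALB/c female 3 held 0. Without BALB/c female 1, the level was 4.14 times that limit. These ratios leave out the counting error of the BALB/c counts, so neither is a lower bound. The exact Poisson interval of the BALB/c level, from all 10 counts, was 1.22 to 4.69 CPM, above that limit. Ackr1 shares 25.7% of its exon bases with Cadm3. Ackr4, the scavenger of CCL19 and CCL21, had 2, 5 and 3 counts.

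Groups that did not overlap were found for 5 of the 19 tested genes in female BWF1 mice against male BWF1 mice (26.3%, where 18.7% of all tested genes did not overlap). There were 9 in female BWF1 mice against female BALB/c mice (47.4%, where 21.2% of all did not) and 10 in male BWF1 mice against female BALB/c mice (52.6%, where 23.5% of all did not). Ccl3, Ccl4 and Cxcl13 are among the 9 and the 10, as is Ackr3, which passed the filter through the BWF1 libraries alone.

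Counts for genes downstream of the receptors and of related guidance systems are given beside the shares of all tested genes called in the same comparison, 2.19% for female against male BWF1 mice, and 3.82% and 3.52% for female and male BWF1 mice against female BALB/c mice, and nothing is read from the counts. Of 14 tested G protein and effector genes, 1 was called: Gna13, the Gα13 subunit that confines follicular B cells, was at 141, 129 and 113 CPM in female BWF1 mice and 81.9, 87.4 and 83.3 CPM in female BALB/c mice, a log2 difference of 0.60 (SE 0.16, edgeR adjusted p = 0.0337). Of 11 tested regulators of receptor signalling, 1 was called: Rgs1, which shortens chemokine receptor signals in B and T cells, was at 13.2, 22.6 and 16.4 CPM in female BWF1 mice, 9.81, 23.6 and 15.2 CPM in male BWF1 mice, and 41.0, 45.3 and 35.7 CPM in female BALB/c mice. Every BWF1 library lay below every BALB/c library, with a log2 difference of −1.20 (SE 0.30, edgeR adjusted p = 0.0188) in females and −1.29 (SE 0.28, edgeR adjusted p = 0.00615) in males. Of 26 tested genes of migration and adhesion, 1 was called, the haematopoietic GTPase Rac2, lower in female BWF1 mice than in male BWF1 mice with a log2 difference of −0.55 (SE 0.14, edgeR adjusted p = 0.0414).

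Among 16 tested genes of related guidance systems, 3 were called in at least 1 comparison. Ccrl2, a receptor-like protein that binds chemerin and is not among the symbols of the family, was at 2.21, 14.5 and 8.21 CPM in female BWF1 mice, 13.7, 15.4 and 16.9 CPM in male BWF1 mice, and 43.8, 44.0 and 35.7 CPM in female BALB/c mice. It was lower than in female BALB/c mice, with log2 differences of −2.23 (SE 0.35, edgeR adjusted p = 0.000302) in female BWF1 mice and −1.39 (SE 0.30, edgeR adjusted p = 0.00610) in male BWF1 mice. Ppbp, the platelet chemokine CXCL7 under another symbol, was at 24.3, 19.4 and 10.3 CPM in female BWF1 mice, 9.81, 6.15 and 7.29 CPM in male BWF1 mice, and 5.03, 5.91 and 2.97 CPM in female BALB/c mice. Its log2 difference was 1.89 (SE 0.45, edgeR adjusted p = 0.0145) for female BWF1 mice against female BALB/c mice.

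The 9 megakaryocyte and platelet markers, Ppbp among them, summed to 51.3 to 56.5 CPM in female BWF1 mice, 29.8 to 53.0 CPM in male BWF1 mice and 16.9 to 21.7 CPM in female BALB/c mice, and their part in the Ppbp difference was not tested. S1pr1, the receptor by which lymphocytes leave lymphoid tissue, was at 112, 129 and 121 CPM in female BWF1 mice and 161, 233 and 220 CPM in male BWF1 mice, a log2 difference of −0.76 (SE 0.17, edgeR adjusted p = 0.0146).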

How the data were processed

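Raw read counts per gene were deposited by the authors, for 9 libraries with 3 per group. Per the submitters' processing notes, the tools were STAR 2.6 and FastQC 0.10.1 and the build was mm10. The annotation, the strand setting and the feature counted are not given in the sources used here. No label says that replicates came from separate animals, so p-values measure the spread between these libraries. The libraries were prepared from ribosomal RNA-depleted RNA, per the labels' protocols.

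Of 21965 identifiers, 21939 matched GENCODE M21, and summary lines that name no gene, stayed out of all totals (genes held 1.29% to 2.82% of alignments). Genes were filtered with filterByExpr (minimum count 10) and scaled with TMM factors. All 9 libraries entered 1 quasi-likelihood fit in edgeR 4.0.16 (R 4.3.3, prior degrees of freedom 19.4) with group as the only term. P-values were adjusted over 7719 genes, SE is the log2 difference divided by the square root of F, and 95% intervals use the normal quantile. Fits in limma 3.58.1 and DESeq2 1.42.0 were alternatives, and the steps were tested on simulated data.

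Per-kilobase levels use the union of a gene's exons. Reads carried no molecular identifiers, so count intervals and limits from 3 counts cover counting error only. Replicates differed by more than counting error (chi-square per degree of freedom 1.23 to 3.12). The genes, marker lists and tests were chosen with earlier results of these data known. Every family gene is accounted for; of the other lists, called genes are named, at most the 3 with the lowest p in each direction. For 1 tested gene of the family, counted in the totals, values are not reported here.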

Additional observations from a re-analysis of the deposited data

How the results depend on the processing

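Under all alternatives run, Ccl5 was called lower in female BWF1 mice than in male BWF1 mice (21 alternatives, −2.11 to −1.69) and than in female BALB/c mice (20, −2.23 to −1.61). So was Ccr7 in female BWF1 mice against female BALB/c mice (20, −1.47 to −0.93), and Ackr3 was called higher in male BWF1 mice against female BALB/c mice (20, 1.94 to 2.64). Ackr3 in female BWF1 mice lost its call in 1 of 20, with library size only. Since Ackr3 passed the filter through the BWF1 libraries alone, its calls against female BALB/c mice are descriptions. Ccl3 in female BWF1 mice against female BALB/c mice lost it in 9 of 20 (−3.64 to −1.93): DESeq2 (adjusted p = 0.154), limma-voom (0.0748), the replicate block (0.0567), the tag term (0.217) and without BWF1 female 2 (0.147) or 3 (0.0797) or BALB/c female 1 (0.0824), 2 (0.0628) or 3 (0.0998). Cxcl13 lost it in 6 of 19 (−4.25 to −2.06; −3.78 without BWF1 female 1): DESeq2 (0.148), limma-voom (0.0723) and without BWF1 female 2 (0.156) or 3 (0.0827) or BALB/c female 1 (0.149) or 3 (0.0858). Cxcl13 in male BWF1 mice lost it in 1 of 19, without BALB/c female 1 (−4.27 to −2.31). Without Lars2, Cxcl13 did not pass the filter and was not tested in either comparison. Ccl3, Ccl4 and Cx3cr1 were called in male BWF1 mice against female BALB/c mice with limma-voom alone (−1.25, −1.11 and 1.74). Causes were not tested.

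In female BWF1 mice against male BWF1 mice, 169 genes were called, against 59 with library size only, 304 without a filter, 105 with DESeq2, 99 in RL libraries only and 58 to 198 without 1 library (58 and 101 without BWF1 male libraries 3 and 2, 108 without BWF1 female 3). For the family, 1 gene was called, against 2 with library size only, 4 without a filter, 2 with limma-voom and 1 to 2 without 1 library. In female BWF1 mice against female BALB/c mice, 295 were called, against 130 with library size only, 169 with DESeq2, 160 with the tag term and 184 to 370 without 1 library (184, 189 and 194 without BALB/c libraries 1, 2 and 3). For the family, 5 were called, against 8 without a filter, 3 with DESeq2, 3 with limma-voom and 3 to 7 without 1 library (3 without BWF1 female 2 or BALB/c female 1). In male BWF1 mice against female BALB/c mice, 272 were called, against 433 without Lars2, 510 without a filter, 650 with limma-voom, 153 with the tag term, 484 with edgeR's older quasi-likelihood fit (chosen after seeing the data) and 119 to 393 without 1 library (119 without BALB/c female 2, 150 without BWF1 male 3). For the family, 2 were called, against 4 with library size only, 4 without Lars2, 8 without a filter, 4 with a minimum count of 3, 8 with limma-voom, 5 with the older fit and 1 to 7 without 1 library (6 and 4 without BWF1 male libraries 1 and 2, 4 and 7 without BWF1 female libraries 1 and 3, 1 and 4 without BALB/c libraries 1 and 3).

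Across the alternatives, signs were followed only for the 5 family genes called in any comparison. Among these genes, signs turned for 2 uncalled differences. Cxcl13 in female BWF1 mice against male BWF1 mice was 0.028 with the tag term and −1.20 to 1.36 without 1 library (1.36 without BWF1 male 3, 0.52 without BWF1 female 2). Ccl5 in male BWF1 mice against female BALB/c mice was −0.38 with library size only, −0.010 with the replicate block and −0.23 to 0.33 without 1 library (−0.23, −0.18 and −0.09 without BWF1 male 3, BALB/c female 1 and BALB/c female 2). Same-numbered libraries did not deviate together (9 pairs, r = −0.09 to 0.06; 1 of 9 libraries correlated best with its own number). With the replicate block 118, 255 and 240 genes and 1, 4 and 2 family genes were called in the 3 comparisons. Depth limits the 26 genes below the filter.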
